A study of Mus musculus with 2 samples.

Results

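The peaks described here are the most tag-rich regions of 5-hydroxymethylcytosine (5hmC) on the autosomes of embryonic stem (ES) cells, here from the mouse strain 129SvEv. Genomic DNA was sheared, 5hmC-bearing fragments were tagged with biotin and pulled down, and the pulled-down DNA was sequenced. There was 1 library that came from cells given 100 µM of ascorbic acid (AA) over 24 h, and 1 library came from cells whose label names no incubation and which the series' design sets against them as cells without AA. Each library has its own deposited peak list, that is, a table of regions enriched over the genomic background, and there is no input library. The members are all peaks on chromosomes 1 to 19 with at least 100 tags, a tag being 1 aligned read. They were 1301 of 57827 peaks in the AA-recorded list and 1071 of 63834 in the no-AA-recorded list. The raw tag count chose them, so their tags, tags per bp, fold enrichment and p are given as description, without a test.

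In both lists the header names the other sample. The assignment recorded for the files was kept, hence the names AA-recorded and no-AA-recorded, and every direction between the lists turns round if the headers are right. After duplicates were removed, 11907082 tags remained in the AA-recorded library and 18398162 in the no-AA-recorded library. As each group is 1 library, the differences have no replicate check and were not tested. Intervals are exact at 95%, by Poisson limits of counts and Clopper-Pearson limits of shares. They cover counting error only, since without molecular identifiers several tags may stem from a single molecule. All positions are on mouse build mm9. Genes and repeats at these positions were not looked up, for want of an mm9 annotation.

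5hmC is made from 5-methylcytosine by the Tet dioxygenases, enzymes that depend on iron in its reduced form, which vitamin C helps to maintain. In ES cells 5hmC is known from gene bodies, enhancers and some promoters. A region can collect many tags because it is long, because it is strongly enriched, or because many copies of a repeat in the cells share few copies in the assembly. Satellite DNA around the centromeres and tandem duplications are the best known repeats of this kind, and an input library is the usual means to tell the last case from the others.

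The tag-rich peaks were few and held a larger part of the tags than of the peaks. They made up 2.31% of the 56365 autosomal peaks in the AA-recorded list (2.19% to 2.44%) and 1.72% of 62108 in the no-AA-recorded list (1.62% to 1.83%). They held 9.27% of the tags in autosomal peaks in the AA-recorded list and 7.82% in the other. Their summed length was 4.23 Mb in the AA-recorded list, against 2.85 Mb in the no-AA-recorded list. The numbers of 1301 (1231 to 1374) and 1071 (1008 to 1137) gave a log2 ratio, AA-recorded over no-AA-recorded, of 0.28 (0.16 to 0.40).

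The minimum of 100 raw tags was not the same bar in both libraries. It stood at 8.40 tags per 1000000 kept tags in the AA-recorded library and at 5.44 in the no-AA-recorded library. With the bar of the AA-recorded library in both, 1301 AA-recorded and 233 no-AA-recorded peaks passed. With the bar of the no-AA-recorded library in both, 5338 and 1071 passed. The minimum fell within a continuous run of tag counts. In the AA-recorded list 35 peaks had exactly 100 tags and 63 had 99, and in the no-AA-recorded list the numbers were 38 and 42. Peaks just inside (100 to 104 tags) and just outside (95 to 99 tags) had median lengths of 2661.5 and 2607.5 bp in the AA-recorded list, and of 2236 and 2167 bp in the no-AA-recorded list.

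Most tag-rich peaks had between 100 and 149 tags, 1008 (77.5%) in the AA-recorded list and 813 (75.9%) in the other. At least 300 tags were held by 30 AA-recorded and 52 no-AA-recorded peaks. The median was 121 tags (quartiles 109 and 146) in the AA-recorded list and 122 (108 and 147.5) in the other. The highest counts were 1496 tags in the AA-recorded list and 1849 in the no-AA-recorded list.

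Nearly all of these peaks were long. The median tag-rich peak was 3152 bp long (quartiles 2631 and 3753) in the AA-recorded list and 2546 bp (2187 and 2961) in the no-AA-recorded list. The medians of all autosomal peaks were 1034 and 780 bp. A length over 2 kb was reached by 1233 AA-recorded members (94.8%) and 918 no-AA-recorded members (85.7%). Of all autosomal peaks 8.87% and 2.70% were that long. The broad class and the tag-rich class therefore crossed only in part, as 24.7% of the AA-recorded and 54.8% of the no-AA-recorded peaks over 2 kb had 100 tags. Tags are counted over the whole peak, so length and tags are not independent.

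The tag-rich peaks had a lower fold enrichment than all autosomal peaks, at a higher density. The median fold enrichment over the caller's background was 4.90 for AA-recorded and 4.58 for no-AA-recorded members, against 7.78 and 6.99 for all autosomal peaks. Tags per bp had medians of 0.0399 in the AA-recorded members and 0.0487 in the no-AA-recorded members, against 0.0264 and 0.0349 for all. Tags per bp divided by fold enrichment, relative to the median autosomal peak of the same list, gives a rough measure of the background around a peak. It was 2.35 for the median AA-recorded member (quartiles 1.94 and 2.81) and 2.14 for the median no-AA-recorded member (1.75 and 2.58). A value of at least 2 was reached by 71.7% and 61.0% of the members, against 6.96% and 4.44% of all autosomal peaks. At least part of this comes with the choice of members, since tags are in the measure, and it may be all of it. With no control, the background was taken from the same library over 10000 bp. A long, tag-rich peak and its neighbours can therefore add to it, and how far the surroundings themselves were raised was not tested.

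**Figure D1:**
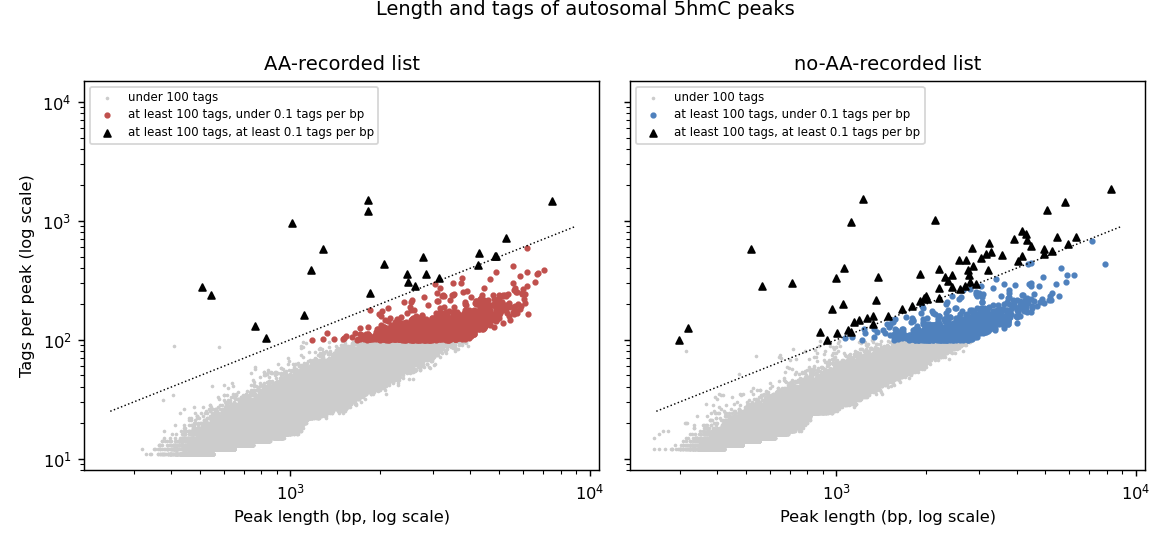
Each point is an autosomal peak, with its length in bp (x) and its tags (y), both on log scales, in the AA-recorded list (left) and the no-AA-recorded list (right). Grey points have under 100 tags, the dotted line marks 0.1 tags per bp, and triangles are the 24 AA-recorded and 71 no-AA-recorded members on or above it; most members lie below the line, at the long end of the main cloud.

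A small part of the members was dense. At least 0.1 tags per bp was reached by 24 AA-recorded members (1.84%, 1.19% to 2.73%) and 71 no-AA-recorded members (6.63%, 5.21% to 8.29%). The same raw density is a lower bar in the deeper no-AA-recorded library. At equal tags per kept tag the numbers were 76 (5.84%, 4.63% to 7.26%) and 71 (6.63%) with the bar of the no-AA-recorded library, and 24 (1.84%) and 30 (2.80%, 1.90% to 3.97%) with that of the AA-recorded library. At least 0.25 raw tags per bp was reached by 7 and 10. Duplicates were removed down to 1 tag per position, which allows at most 2 tags per bp over both strands. The densest members came to 0.935 tags per bp in the AA-recorded list and 1.24 in the no-AA-recorded list, which is 46.8% and 62.1% of that limit. At such density the removal of duplicates narrows the range that counts can take.

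The densest place on the autosomes was on chromosome 2. The AA-recorded list held 1496 tags at 98506208 to 98508024 and 950 tags at 98502260 to 98503275. The no-AA-recorded list held 1527 tags at 98506330 to 98507559 and 971 tags at 98502101 to 98503218. A further peak between them did not overlap, with 239 tags at 98504970 to 98505513 in the AA-recorded list and 300 tags at 98503642 to 98504349 in the other. Fold enrichment at this place was between 3.25 and 6.82 in the AA-recorded list and between 4.40 and 6.51 in the other. The caller's background was thus high as well, and these neighbouring peaks can themselves add to it. The background measure was 35.6 to 50.3 times the median peak in the AA-recorded list and 19.2 to 38.1 times in the no-AA-recorded list, higher than at any other member.

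Other dense places had a higher fold enrichment over the caller's background, which the tags of a peak and its neighbours can raise. Whether the contrast with chromosome 2 reflects the surroundings was not tested. On chromosome 9 the AA-recorded peak at 35112265 to 35113554 held 582 tags at 27.93-fold, and the no-AA-recorded peak at 35112731 to 35113249 held 578 tags at 31.76-fold. On chromosome 6 the AA-recorded peak at 103598915 to 103599419 held 275 tags at 35.17-fold, and the no-AA-recorded peak at 103598977 to 103599542 held 285 tags at 45.98-fold. On chromosome 15 the AA-recorded peak at 74915783 to 74917597 held 1210 tags at 15.01-fold, and the no-AA-recorded peak at 74915681 to 74917819 held 1007 tags at 16.80-fold. These peaks were between 505 and 2139 bp long, and each had a counterpart in the other list. Members under 1 kb, the compact end of the class, numbered 4 in the AA-recorded list and 9 in the no-AA-recorded list.

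Several dense places lay at the very start of a chromosome, next to the centromere, since mouse chromosomes are acrocentric and the first listed peak of each autosome began between 3000472 and 3074150. On chromosome 13 the AA-recorded peak at 3371827 to 3372997 held 383 tags and the no-AA-recorded peak at 3371976 to 3373037 held 398. On chromosome 12 the AA-recorded peak at 3109307 to 3111758 held 356 tags and the no-AA-recorded peak at 3109510 to 3110507 held 333. On chromosome 18 the AA-recorded peak at 3004674 to 3006723 held 432 tags and the no-AA-recorded peak at 3004490 to 3006399 held 356. On chromosome 11 the AA-recorded list held 1472 tags at 3088485 to 3095979 and 505 tags at 3083602 to 3088475. The no-AA-recorded list held 651 tags at 3083504 to 3086741 and 815 tags at 3076198 to 3080354, and the last of these overlapped no AA-recorded peak, just as the AA-recorded peak of 1472 tags overlapped none of the other list.

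At chromosome starts the shares of the 2 lists had overlapping counting intervals. Within 3 Mb of the first listed peak lay 30 AA-recorded members (2.31%, 1.56% to 3.28%) and 41 no-AA-recorded members (3.83%, 2.76% to 5.16%). Of all autosomal peaks 2.60% and 2.74% lay there, so the share of all peaks was inside the counting interval of the AA-recorded members and below that of the no-AA-recorded members. Of these members 6 in the AA-recorded list and 11 in the no-AA-recorded list were dense, which is 6 of 24 and 11 of 71 dense members. The members near the start were uneven by chromosome. Chromosome 14 had 4 AA-recorded and 12 no-AA-recorded ones and chromosome 8 had 1 and 5, while chromosome 11 had 7 and 4. At the far ends, within 3 Mb of the last listed peak, lay 2.92% of the AA-recorded and 2.61% of the no-AA-recorded members, against 2.49% and 2.51% of all autosomal peaks.

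A background measure of at least 5 was found at 19 AA-recorded and 28 no-AA-recorded members. Only 1 further AA-recorded and 2 further no-AA-recorded autosomal peaks reached it, a scarcity that the rule favours, since tags are in the measure. Joined over gaps of at most 100 kb, these members formed 17 places, and at 10 of them members of both lists reached a measure of 5. Where 1 list alone reached it, the other list could still have a tag-rich peak, as on chromosomes 9 and 13 above. The 17 places included chromosome 2 at 98.5 Mb and the start of chromosome 11, both described above. On chromosome 8 the AA-recorded peak at 56203929 to 56209186 held 712 tags at 3.75-fold, and the no-AA-recorded peak at 56204052 to 56209128 held 1240 tags at 5.53-fold. On chromosome 17 the AA-recorded peak at 39979822 to 39985983 held 595 tags at 3.40-fold, and the no-AA-recorded peak at 39979878 to 39985825 held 641 tags at 3.0-fold. On chromosome 15 the AA-recorded peak at 91736674 to 91740955 held 537 tags at 5.37-fold, and the no-AA-recorded peak at 91736693 to 91740999 held 782 tags at 5.11-fold. Exceptions in fold were the peaks on chromosomes 9 and 13, the peak on chromosome 15 at 74915783 and 1 peak of the chromosome 8 block described below, which reached 8.51-fold. At the other places fold enrichment was between 3.0 and 7.58. A low fold is favoured by the choice itself, since the measure is tags per bp over fold. Whether they are repeats, and what part of their tags comes from 5hmC, was not tested, since there is no input library.

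Most tag-rich peaks of one list were called in the other, where the counterpart had 100 tags in some cases and fewer in others. Of the AA-recorded members, 895 overlapped any no-AA-recorded peak by at least 1 bp (68.8%, 66.2% to 71.3%), against 47.1% of all AA-recorded autosomal peaks. Of the no-AA-recorded members, 779 overlapped any AA-recorded peak (72.7%, 70.0% to 75.4%), against 43.3% of all no-AA-recorded autosomal peaks. Long peaks overlap more easily. Of the peaks over 2 kb with under 100 tags, 52.6% of the AA-recorded and 59.0% of the no-AA-recorded ones overlapped the other list. Overlap with a peak that itself had 100 tags was found for 424 AA-recorded members (32.6%, 30.05% to 35.21%) and 425 no-AA-recorded members (39.7%, 36.7% to 42.7%). Counterparts under 100 tags alone were found for 471 AA-recorded and 354 no-AA-recorded members. Joined across the lists, the members made 1946 places, of which 423 held members of both, 877 of the AA-recorded list alone and 646 of the no-AA-recorded list alone.

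Members chosen in one library can be measured in the library that did not choose them. The AA-recorded members with a counterpart had a median of 99 tags in the no-AA-recorded library (quartiles 70 and 133), against 34 for all AA-recorded autosomal peaks with a counterpart. The no-AA-recorded members with a counterpart had a median of 104 tags in the AA-recorded library (80 and 142), against 32 for all no-AA-recorded autosomal peaks with one. The richest members were matched most often to another member, a match that needs 100 tags in the counterpart. From 100 to 149 tags, 25.9% of the AA-recorded and 34.8% of the no-AA-recorded members overlapped a member of the other list. From 300 tags upward the shares were 86.7% (69.3% to 96.2%, n = 30 peaks) and 71.2% (56.9% to 82.9%, n = 52 peaks). A counterpart of a peak far above the minimum passes it more easily, so the rule favours this rise. Overlap with any peak was 67.7% and 86.7% in these classes of the AA-recorded list. In the no-AA-recorded list it was 74.2% and 73.1%.

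Members with no counterpart of any strength numbered 406 of 1301 in the AA-recorded list and 292 of 1071 in the no-AA-recorded list. To lack one was rarer among members than among all peaks. A counterpart was found for 68.8% and 72.7% of members, against 47.1% and 43.3% of all autosomal peaks. The unmatched members were longer and flatter than members as a whole, with median lengths of 3355.5 and 2741.5 bp and median folds of 4.40 and 3.95. The nearest peak of the other list lay at a median of 10175 bp from the AA-recorded ones and 9155 bp from the no-AA-recorded ones. Among the richest, the AA-recorded peak on chromosome 11 at 59997558 to 60004116 held 306 tags at 3.35-fold, with no no-AA-recorded peak within 39120 bp. The AA-recorded peak on chromosome 8 at 111469322 to 111474966 held 273 tags at 3.34-fold, with none within 27350 bp. The other 3 of the 5 richest AA-recorded ones, and all 5 of the richest no-AA-recorded ones, lay at the start of chromosome 11 or in the chromosome 8 block. The lists give no tags for regions that were not called, so these members have no ratio.

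Where both libraries had 100 tags in a peak that overlapped one to one, there were 413 pairs. Their medians were 136 AA-recorded tags (quartiles 116 and 171) and 133 no-AA-recorded tags (113 and 164). Scaled to kept tags these were 11.4 AA-recorded and 7.23 no-AA-recorded tags per 1000000. The median log2 ratio, AA-recorded over no-AA-recorded, was 0.64 (quartiles 0.40 and 0.85), against 0.52 for all 26027 one-to-one autosomal pairs. Without scaling it was 0.01, and 208 of the 413 pairs had more AA-recorded tags. Scaled instead to tags in peaks, 2014288 AA-recorded and 2159970 no-AA-recorded, it was 0.11. The size of the ratio thus depends on the scaling. Scaled to kept tags, 68 pairs were over 2-fold higher in the AA-recorded library (16.5%, 13.0% to 20.4%), against 20.5% of all pairs. Over 2-fold lower were 2 pairs (0.484%), against 0.407% of all pairs. After scaling to kept tags, 381 of the 413 were higher in the AA-recorded library (92.3%, 89.2% to 94.6%), against 82.4% of all pairs. Both counts were in the rule, and the choice in one list alone moves the ratio: it was 1.00 for the 855 pairs with 100 AA-recorded tags and 0.33 for the 764 pairs with 100 no-AA-recorded tags.

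**Figure D2:**
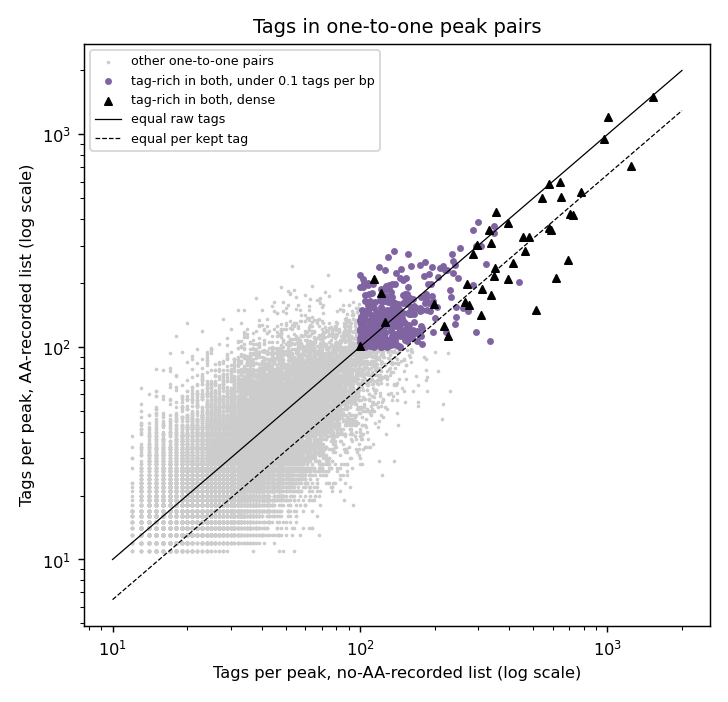
Each point is a one-to-one peak pair on the autosomes, with its no-AA-recorded tags (x) and its AA-recorded tags (y) on log scales. Purple points are the 371 pairs with 100 tags in both lists and under 0.1 tags per bp, black triangles are the 42 dense pairs, the solid line marks equal raw tags and the dashed line equal tags per kept tag; the purple points lie around the solid line, while most triangles of more than 200 tags lie between the lines or below them.

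Ratios were lower in the dense pairs than in the pairs of lower density. Of the 371 pairs with under 0.1 tags per bp in both lists, 358 were higher in the AA-recorded library after scaling, at a median log2 ratio of 0.67. Of the 42 pairs with at least 0.1 tags per bp in either list, 23 were higher, at a median of 0.08. The dense pairs were themselves mixed. The 8 pairs with at least 0.25 tags per bp in either list were all higher, with log2 ratios between 0.57 and 0.89. Their raw tags were close to equal in most cases, with AA-recorded over no-AA-recorded ratios between 0.962 and 1.20 and a median of 0.993, although the no-AA-recorded library was 1.55 times as deep. The 13 pairs of the chromosome 8 block had a median of -0.08, and 4 of them were higher. The other 21 dense pairs had a median of 0.05, and 11 were higher. Density was counted from the tags that give the ratio, and the raw bar is more easily reached in the deeper no-AA-recorded library. The choice of the dense pairs can therefore lower their ratio. How far it did was not tested, and these classes are a description.

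The highest ratios among the 413 pairs were on long peaks, most of them called much longer in the AA-recorded list. The first was on chromosome 11 (104159410 to 104164364), with 218 tags in the AA-recorded peak, 100 in its counterpart and a log2 ratio of 1.75 (interval 1.404 to 2.108). Its peaks were 4955 bp long in the AA-recorded list and 2297 bp in the other, and its log2 ratio in tags per bp was 0.64. Then came 2 pairs on chromosome 8 (122135879 to 122142080 and 86244382 to 86250389) at 1.67 and 1.66, chromosome 7 (79795003 to 79800090) at 1.64 and chromosome 1 (188790065 to 188793292) at 1.63. The pair on chromosome 1 was the exception in length, at 3228 bp in the AA-recorded list and 2471 bp in the other. It was also the exception in density, where its log2 ratio of 1.25 was the highest of the 413.

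The lowest ratio was in the chromosome 8 block (19963690 to 19965961), where the AA-recorded peak held 149 tags and its counterpart 512, for -1.15 on the log2 scale (-1.43 to -0.89). Next was chromosome 1 (85105726 to 85109359), where the counts were 107 and 335, for -1.02 (-1.35 to -0.70). A close couple of peaks on chromosome 10 came next. There the AA-recorded peaks at 57693853 and 57685294 held 212 and 257 tags, and their no-AA-recorded counterparts at 57692283 and 57685354 held 618 and 693. Their log2 ratios were -0.92 (-1.15 to -0.69) and -0.80 (-1.02 to -0.59). The fifth was on chromosome 17 (84860001 to 84863639) at -0.69. These are the ends of 413 pairs and their intervals take no account of that.

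The summit, the position of most tags within a peak, was not used to choose the members. In the 413 pairs the summits of both lists lay a median of 406 bp apart (quartiles 94 and 843), against 113 bp in all one-to-one pairs. They were within 100 bp in 26.6% (22.4% to 31.2%), against 46.2% of all pairs, and over 1 kb apart in 21.3%, against 2.85%. As a share of the shorter peak the median distance was 16.1%, against 13.6%, so relative to peak length the spacing was closer to that of all pairs. The dense pairs differed again, at a median of 58 bp and with 69.0% (52.9% to 82.4%) within 100 bp. In the 8 pairs of at least 0.25 tags per bp no summit was displaced by more than 63 bp. Within a peak, 31.5% of the AA-recorded and 35.5% of the no-AA-recorded members had their summit in the outer 25% at either end, against 9.92% and 9.69% of all autosomal peaks. Members were much longer than all peaks, and peaks of like length with fewer tags were not compared, so length was not separated from tags here.

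Tag-rich peaks lay near each other. In stretches of 100 kb, 336 AA-recorded members (25.8%, 23.5% to 28.3%) and 305 no-AA-recorded members (28.5%, 25.8% to 31.3%) shared their stretch with another member of the same list. These stretches numbered 145 in the AA-recorded list and 127 in the no-AA-recorded list, most of them with exactly 2 members (114 and 99). Among peaks within 10 kb of another tag-rich peak, 14.6% of the AA-recorded (11.8% to 17.8%) and 23.4% of the no-AA-recorded peaks (19.9% to 27.3%) were themselves tag-rich. The share fell with distance, to 3.34% and 2.62% between 100 and 250 kb and 1.68% and 1.45% between 250 and 1000 kb. The whole lists stood at 2.31% and 1.72%, above the shares of the farthest of these groups. Members also lay where peaks of any strength were frequent, with a median of 38 AA-recorded and 40 no-AA-recorded other peaks within 500 kb, against 31 and 32 for all autosomal peaks. Some neighbours lay very close: in the AA-recorded list 5 and in the no-AA-recorded list 13 successive members were less than 1 kb apart. Whether these were pieces of 1 region was not tested.

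**Figure D3:**
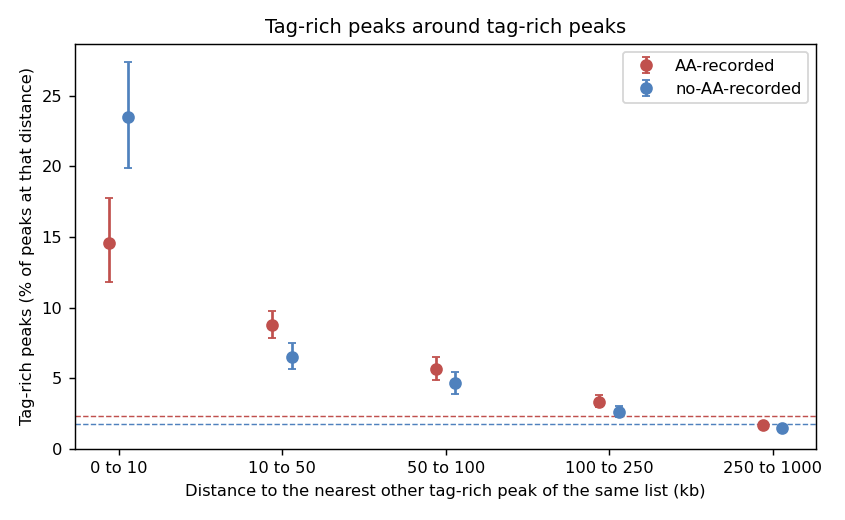
Percent of peaks that had at least 100 tags (y), among peaks grouped by distance in kb to the nearest other tag-rich peak of the same list (x), in the AA-recorded (red) and the no-AA-recorded list (blue). Bars are 95% Clopper-Pearson intervals and dashed lines the shares in the whole autosomal lists, 2.31% and 1.72%; the share is highest within 10 kb and lies below the dashed lines between 250 and 1000 kb, at 1.68% and 1.45%.

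Stretches with 3 or more members numbered 31 in the AA-recorded list and 28 in the no-AA-recorded list, 51 in either and 8 in both. Of the 51, 20 were on chromosome 8 and 8 on chromosome 1. Outside the chromosome 8 block the fullest stretch of the AA-recorded list was at 97.7 to 97.8 Mb on chromosome 8, with 5 AA-recorded and 3 no-AA-recorded members. The fullest of the no-AA-recorded list there was at 47.6 to 47.7 Mb on chromosome 6, with 1 AA-recorded member of 101 tags and 6 no-AA-recorded members of 1024 tags in all. Stretches at 122.1 and 122.8 Mb on chromosome 8 each held 4 AA-recorded members and 1 no-AA-recorded member. On chromosome 1 the stretch at 87.4 to 87.5 Mb held 1 AA-recorded and 4 no-AA-recorded members, with 202 and 1307 tags. Stretches at 156.5 Mb on chromosome 2 and at 89.2 Mb on chromosome 15 held 4 AA-recorded members each and no no-AA-recorded member, although no-AA-recorded peaks of under 100 tags were called in both.

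The fullest run of tag-rich peaks was a block on chromosome 8 from 19.7 to 20.1 Mb, whose bounds were set after its values were seen. It held 19 AA-recorded and 30 no-AA-recorded members. Nearly every peak called there was tag-rich, 19 of 19 in the AA-recorded list and 30 of 32 in the other. The AA-recorded members had a median of 216 tags (102 to 502) and the no-AA-recorded members a median of 420 (117 to 1849). At 0.1 raw tags per bp, dense members numbered 4 of 19 in the AA-recorded list and 27 of 30 in the other. At equal tags per kept tag the contrast was smaller, with 13 of 19 and 27 of 30 at the lower bar and 4 of 19 and 9 of 30 at the higher bar. The background measure had medians of 3.13 in the AA-recorded members and 4.54 in the no-AA-recorded members.

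All peaks of the block together held 4930 AA-recorded and 14618 no-AA-recorded tags, or 414 and 795 per 1000000 kept tags. They covered 64.2 kb in the AA-recorded list and 104 kb in the no-AA-recorded list, so these sums also reflect how much was called. Per kb the median member had 6.35 tags per 1000000 kept tags in the AA-recorded list and 6.63 in the other. Of the members, 16 of 19 AA-recorded ones overlapped a no-AA-recorded peak and 15 of 30 no-AA-recorded ones overlapped an AA-recorded peak. The shares over all members were 68.8% (AA-recorded) and 72.7% (no-AA-recorded), and over all autosomal peaks 47.1% and 43.3%. The 2 richest no-AA-recorded peaks, at 19970009 to 19978287 with 1849 tags and 19978313 to 19984129 with 1447 tags, overlapped no AA-recorded peak. The nearest AA-recorded member on the far side, at 19988848 to 19991623, held 494 tags and overlapped no no-AA-recorded peak. In all, the block held 2.70% of the tags of AA-recorded members and 8.78% of those of no-AA-recorded members.

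**Figure D4:**
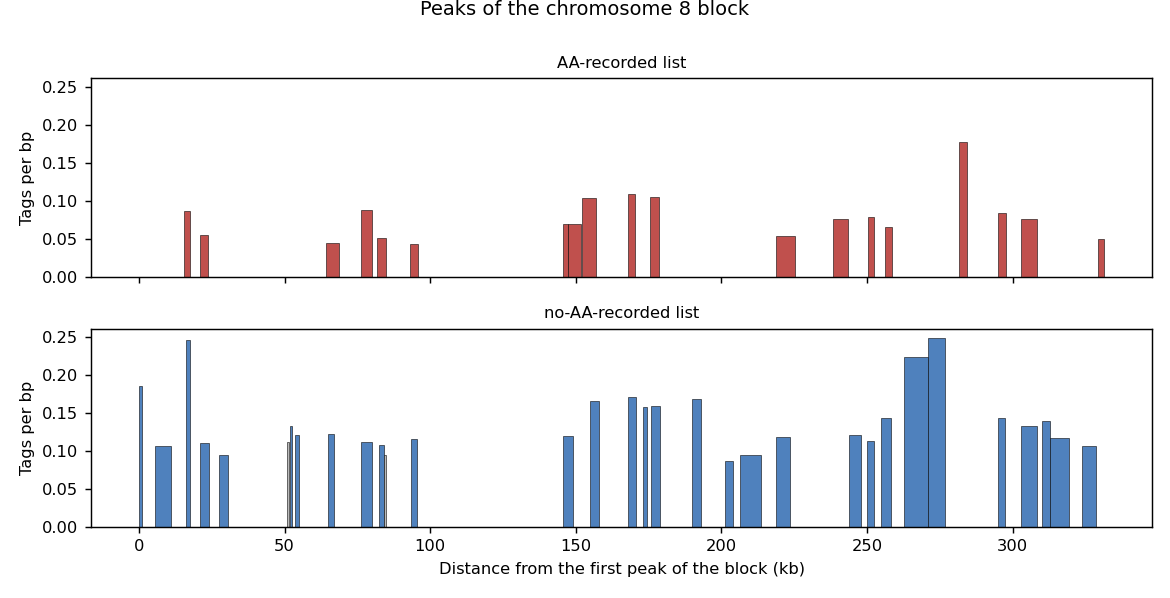
Peaks of the chromosome 8 block in the AA-recorded list (top) and the no-AA-recorded list (bottom), placed by distance in kb from the first peak of the block (x), with tags per bp as height (y) and peak length as width. Coloured bars have at least 100 tags and grey bars fewer; 32 no-AA-recorded peaks stand against 19 AA-recorded ones, and the heights are raw, from libraries of 11907082 (AA-recorded) and 18398162 kept tags (no-AA-recorded).

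Chromosome 8 as a whole carried far more tag-rich peaks than any other autosome. It held 245 members in the AA-recorded list (18.8% of all members) and 245 in the no-AA-recorded list (22.9%), but 6.72% and 7.34% of the autosomal peaks. Tag-rich peaks were 6.47% of its AA-recorded peaks (5.70% to 7.30%) and 5.37% of its no-AA-recorded peaks (4.74% to 6.07%). Chromosome 1 followed in number, with 172 and 149 members, or 3.24% (2.78% to 3.75%) and 2.34% (1.98% to 2.74%) of its peaks. The other 17 autosomes had shares of 0.985% to 3.04% in the AA-recorded list, and of 0.575% to 2.45% in the no-AA-recorded list. Without the block chromosome 8 still held 226 AA-recorded and 215 no-AA-recorded members.

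The background measure of chromosome 8 was also the highest. It is counted from the tags of the same peaks, so it is not independent of the rule. Its median peak had a background measure of 1.16 in the AA-recorded list and 1.20 in the no-AA-recorded list. Chromosome 1 had 1.02 and 1.04, and the other 17 autosomes lay between 0.897 and 1.12 in the AA-recorded list and between 0.891 and 1.09 in the no-AA-recorded list. When tags were divided by the background of their own chromosome, chromosome 8 kept 154 AA-recorded and 154 no-AA-recorded members. These were 4.06% and 3.38% of its peaks, against 2.18% and 1.58% of all autosomal peaks by the same measure. The division is therefore not an independent correction. Beyond 60 Mb, both the share of tag-rich peaks and the background were higher in each further window of 20 Mb. Between 60 and 80 Mb 4.32% of the AA-recorded (2.78% to 6.35%) and 2.86% of the no-AA-recorded peaks (1.78% to 4.33%) were tag-rich, at a median background of 0.930 and 0.998. Beyond 120 Mb it was 11.2% (8.46% to 14.5%) and 11.8% (9.11% to 15.0%), at 1.55 and 1.63. The first 20 Mb, which hold most of the block, had 8.77% and 9.06%, at 1.15 and 1.24. Gains of chromosome 8 are common in cultured mouse ES cells. Copy number was not measured, and its part in the result was not tested.

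**Figure D5:**
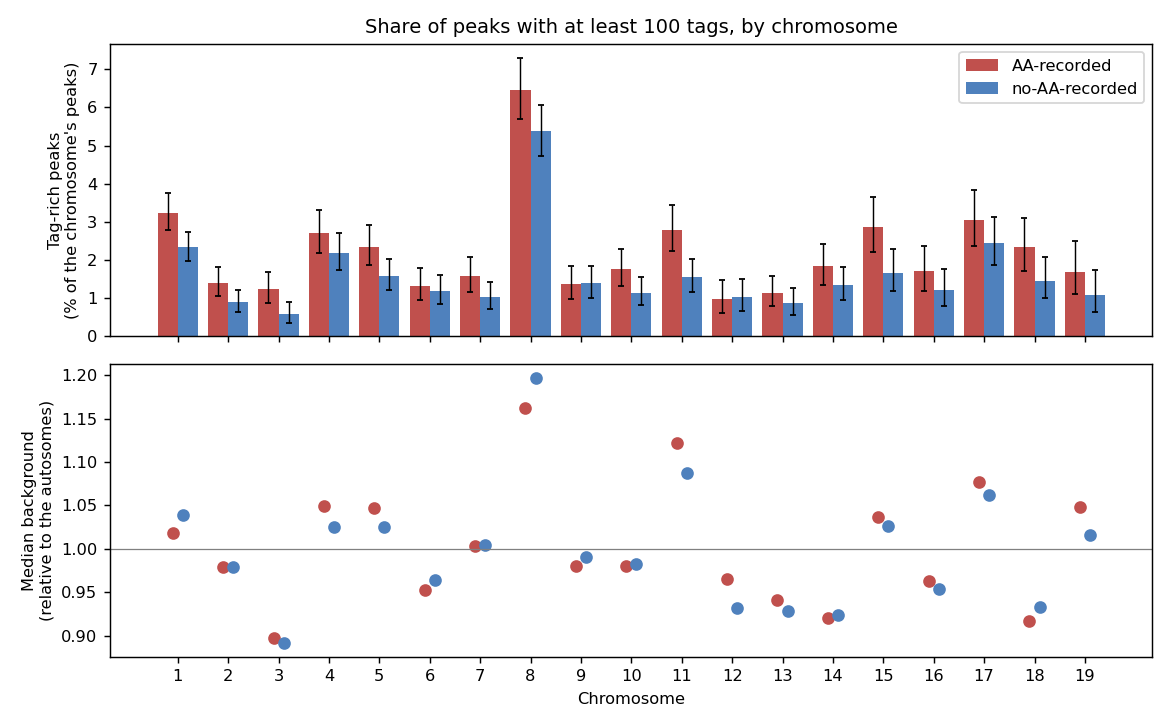
Top: percent of each autosome's peaks that had at least 100 tags (y), by chromosome (x), in the AA-recorded (red, left bar) and the no-AA-recorded list (blue, right bar), with 95% Clopper-Pearson intervals. Bottom: the median background measure of all peaks of the chromosome relative to all autosomal peaks; chromosome 8 is highest in both panels, at 6.47% and 5.37% and at 1.16 and 1.20.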

How the data were processed

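Genomic DNA of mouse ES cells was enriched for 5hmC and sequenced, 1 library per group. Per the submitters' processing notes, reads were aligned with BWA 0.5.9-r16 to mm9 and peaks called with MACS 1.4.2. Per the file headers, each list was called on 1 library without a control, at a p cutoff of 1e-05 with a band width of 300 bp and a regional background over 10000 bp. Tags of 101 bp were kept once per position, 11907082 of 15767993 (AA-recorded) and 18398162 of 27083528 (no-AA-recorded), and the fragment lengths used were 229 and 165 bp. How reads with several possible positions were handled is not given in the sources used here, which matters for repeats.

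The deposited tag counts are whole numbers, not scaled to library size. The deposited score is 10 times the −log10 of the p-value, and the deposited fold enrichment is a ratio to the local background of the same library. These values per peak are the authors'. Peak length is in bp, and the summit is counted within the peak. A depth of 100 tags has an exact Poisson interval of 81.4 to 121.6 tags, and the lists hold no value for regions not called.

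Members are autosomal peaks with at least 100 tags, matched by an overlap of at least 1 bp. Members and lists were chosen with earlier results of these data known. Log2 ratios are AA-recorded over no-AA-recorded tags per peak, scaled to kept tags. The regions named are the 10 members with most tags, the 5 densest, the 5 longest and the 5 richest without a counterpart in each list, the 5 highest and 5 lowest pair ratios, and the fullest 100-kb stretches, given where they add to the text. The background measure, the chromosome 8 block and members under 1 kb were chosen after their values were seen. Alternatives were other tag minimums, overlap rules, densities, stretches and scalings. No genome of build mm9 was used here, so the sequence of the peaks was not analysed here. Calculations used Python 3.11.15, pandas 2.3.3, NumPy 2.4.6 and SciPy 1.17.1, and the matching and clustering code was tested on simulated lists.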

Additional observations from a re-analysis of the deposited data

Results flagged for a closer look

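Peaks of at least 100 tags were also called off chromosomes 1 to 19, outside every comparison above. Chromosome X had 17 of them in the AA-recorded list, with 100 to 267 tags, and 12 in the no-AA-recorded list, with 100 to 191 tags. The mitochondrial genome had 2 in the no-AA-recorded list, with 138 and 309 tags, and none was listed for it in the AA-recorded list. There is no control library to set them against. The lists hold no value for regions not called, so a list without such a peak does not give a count of 0.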

How the results depend on the processing

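No paired analysis was possible because there was a single library per group, which also leaves no library to omit. The analysis of peak sequence was not run. Values without chromosome 8, over the chromosome background, without the block, without dense pairs for the tag ratio and with the dense bar at equal tags per kept tag were alternatives added after seeing the data. For member numbers the log2 ratio of 0.28 became 2.48 and 2.32 with equal tags per kept tag (bars of the AA-recorded and the no-AA-recorded library) and -0.28 with the 2 lists swapped as in the headers. With minimums of 80 and 150 tags there were 2904 and 293 AA-recorded members, against 2367 and 258 no-AA-recorded members. The matched percentages of 32.6 and 39.7 became 68.8 and 72.7 with any peak as partner and 10.1 and 56.2 with equal tags per kept tag. Median lengths of 3152 and 2546 bp became 2923 and 2381 bp less the fragment length, and the no-AA-recorded one 3334 bp with equal tags per kept tag. Dense members, 24 and 71, became 258 and 480 from 0.05 tags per bp and 7 and 10 from 0.25, and at equal tags per kept tag 76 with the bar of the no-AA-recorded library and 30 with that of the AA-recorded library. The percentages in shared stretches, 25.8 and 28.5, became 17.1 and 20.2 in 50-kb stretches, 46.3 and 43.2 in 250-kb stretches and 43.2 and 41.1 in chains with gaps of at most 100 kb, and the AA-recorded one 30.4 with stretches shifted by 50 kb. The median log2 tag ratio of 0.64 became 0.0099 unscaled, 0.11 scaled to tags in peaks, 0.79 scaled to tags before duplicate removal, 0.41 per kb, 0.13 for fold enrichment and 0.71 with 100 tags in either list. The percentages near chromosome starts, 2.31 and 3.83, became 0.846 and 1.87 within 1 Mb and 3.38 and 5.70 within 5 Mb, where all peaks had 0.898, 0.964, 4.00 and 4.23. Wider or narrower windows, other thresholds and a scaling change these values by construction; for the rest the cause was not tested. The other 19 alternatives stayed within the interval around the main value, or for counts within 1.5 times of it.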

Other observations

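Tag-rich peaks were also uneven along chromosome 1, in windows of 20 Mb. Between 120 and 140 Mb they were 6.46% of the AA-recorded peaks (4.67% to 8.66%), the highest share of that list there, and 4.44% of the no-AA-recorded peaks (3.06% to 6.22%). Between 80 and 100 Mb they were 4.80% of the AA-recorded peaks (3.13% to 7.002%) and 5.61% of the no-AA-recorded peaks (3.96% to 7.68%), the highest share of the no-AA-recorded list. Between 100 and 120 Mb each list had 1 member, or 0.395% of the AA-recorded and 0.324% of the no-AA-recorded peaks. The median background measure was 1.23 and 1.24 in the first of these windows, 1.09 and 1.19 in the second and 0.731 and 0.788 in the third. The measure is counted from the tags of the same peaks, and the part of the background in these shares was not tested.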
